A study of Danio rerio with 3 samples.

Results

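Heat shock chaperones and their co-chaperones were examined in muLECs, the mural lymphatic endothelial cells named in the study's title, sorted from the adult zebrafish brain. The members were the genes whose symbol marks them as Hsp90, Hsp70, Hsp110, small heat shock, J-domain, BAG or CCT chaperonin genes, with the mitochondrial chaperonins, TCP1, hsf1 and HSF2. The endoplasmic reticulum Hsp70 gene HSPA5 and the matrix proteoglycan gene HSPG2 were left out by the rule. This gave 106 of the 32105 gene IDs in the count table, of which 26269 have a symbol. By what is known of their proteins, 61 members act in the cytosol or nucleus, 15 in the endoplasmic reticulum and 10 in mitochondria, and 20 class C J-domain genes act in the cytosol or were not assigned. The symbol rule therefore reaches beyond cytosolic chaperones.

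The series holds a single group of 3 RNA-seq libraries, each made from 6 pooled brains of wildtype adults carrying a DsRed reporter under lyve1. Brains were digested with Liberase, an enzyme blend, reporter-positive cells were sorted into Trizol LS, and their RNA was amplified. No untreated, undissociated or reporter-negative cells belong to the group, so levels could be set against the other genes of the same cells and between libraries, and against no other condition. The reporter marks cells by lyve1 activity alone, and the column headers of the counts call the cells pvLECs.

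Hsp70 and Hsp90 chaperones bind unfolded or unstable client proteins and release them through cycles of ATP hydrolysis. J-domain proteins deliver clients to Hsp70 and start its ATP hydrolysis, exchange factors such as BAG and Hsp110 proteins release the bound nucleotide, and the ring-shaped CCT complex folds actin and tubulin. Some of these genes run in all cells, such as HSPA8 and HSP90AB1, while others, such as the hsp70 and hsp90aa1 genes and dnajb1, are known in vertebrates as targets of heat shock factor 1 that rise on protein damage.

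The libraries held 36044297, 35168650 and 34307745 reads in genes in replicates 1, 2 and 3, and 10 or more reads fell on 7472, 6117 and 9739 genes. The nuclear RNA malat1 took 28.4%, 33.3% and 21.1% of reads. The sort was checked with markers of lymphatic endothelium, of which 12 of 13 were found in the table, 10 were tested and 7 called above the median gene (defined further on), among them lyve1b, MRC1, stab1, stab2 and FLT4. PROX1, a transcription factor of lymphatic identity, had 614, 1213 and 1 reads. Of 13 pan-endothelial markers 10 were found, and 5 of 8 tested stood above, among them EGFL7 and clec14a. TIE1 and tek were not called, and cdh5 and kdrl had no more than 3 reads in any library. Markers of other cells were read as well, and the oligodendrocyte markers mbpa and mbpb also stood above the median gene. So did 2 of 2 tested pericyte and smooth muscle markers, RGS5 and a TAGLN ID. Of 6 tested macrophage and microglia markers, 3 stood above: apoeb, cd74a and cd74b. Above it also stood 1 of 7 tested neuron markers, GNG3, and 1 of 5 tested fibroblast and meningeal markers, PDGFRA. Of all tested genes, 23.4% stood above, so the neuron and fibroblast counts do not exceed that share. The myelin gene mbpa had 575, 2109 and 683 CPM (reads scaled to a common library size, with TMM factors), where lyve1b had 656, 521 and 639 CPM, while OLIG2 and cldnk had no more than 3 reads in any library. Amplified reads are not independent molecules, so the intervals and floors given here cover counting error alone. The p-values rest on the spread between libraries, which edgeR moderates with the spread of all tested genes, so they do not measure 1 gene's spread alone. In that spread, pools of brains, sorting and amplification cannot be told apart.

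Members together took 1.12% of reads in replicate 1 (95% Wilson interval 1.11 to 1.12), 0.836% in replicate 2 (0.833 to 0.839) and 0.575% in replicate 3 (0.572 to 0.577). The mean share was 0.843% ± 0.271 (SD, n = 3). Most of it fell on few roles. Hsp90 genes took 0.328%, 0.273% and 0.122%, Hsp70 and Hsp110 genes 0.286%, 0.246% and 0.156%, and class B J-domain genes 0.350%, 0.131% and 0.157%. The 32 class C J-domain genes together took 0.0372%, 0.0360% and 0.0369%. This sum was even, but its genes were not. For example, dnajc4 had 2, 4 and 2071 reads and DNAJC17 had 4, 1286 and 0, both chosen after their values were seen. In a bulk sample, fewer cells that use a gene and less of its RNA per cell cannot be told apart.

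**Figure D1:**
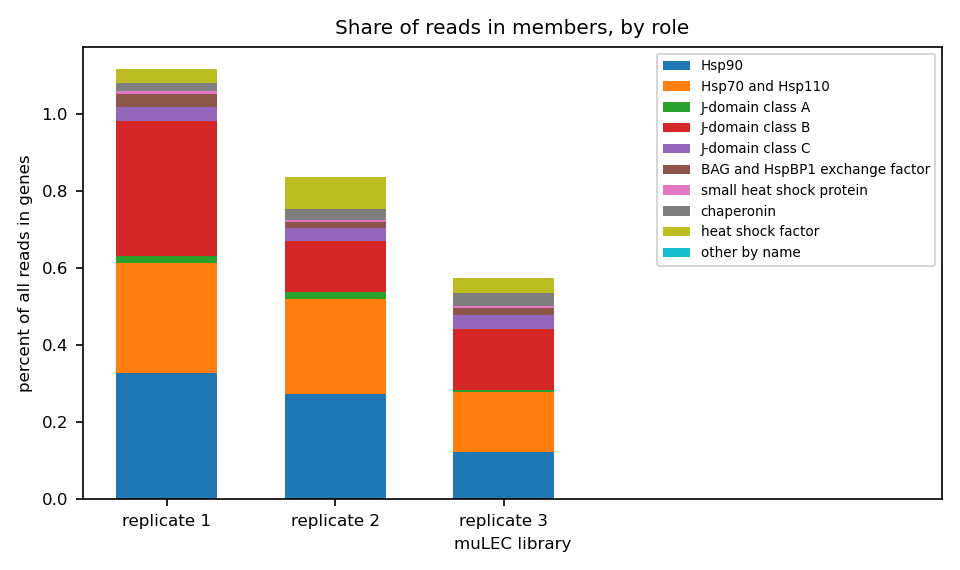
Share of all reads in genes taken by the members, in percent, stacked by role, for each of the 3 muLEC libraries. The whole bar is 1.12%, 0.836% and 0.575% high in replicates 1, 2 and 3, and Hsp90, Hsp70 with Hsp110, and class B J-domain genes make up most of each bar.

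Of the 106 members, 53 reached 10 reads in at least 2 libraries and were tested, a share of 50% against 25.8% of all gene IDs with a symbol. All 3 libraries reached 10 reads for 41 members, and 22 members did so in a single library. For 31 members no library reached 10 reads, and 27 members had no more than 3 reads in any library, which is the floor used here and equals 0.0794, 0.107 and 0.0729 CPM in replicates 1, 2 and 3. A member could also be well covered in one library and missing in another: of 68 members with at least 100 reads in some library, 27 had 5 or fewer in another, a share of 39.7% against 51.3% of all gene IDs with a symbol. Such genes include dnajc4 with 2, 4 and 2071 reads and DNAJC17 with 4, 1286 and 0 reads, both chosen after their values were seen.

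Each tested member was set against the median tested gene of its library with an edgeR quasi-likelihood test at an adjusted p under 0.05. Counts were not divided by gene length, so a longer transcript can collect more reads at the same molar level, and the test speaks of reads. By this test 23 of the 53 tested members stood above the median gene, where 23.4% of all 7111 tested genes did. Below it stood 0 members by edgeR, 0 by DESeq2 and 1 by limma-trend, with 1 at an unadjusted p under 0.05 by edgeR, where 1.24% of all tested genes were called below. The median log2 ratio over the 53 tested members was 0.85, against the median gene at 0 by construction. Calls were not spread evenly over the roles: 4 of 4 tested Hsp90 genes and 7 of 10 Hsp70 and Hsp110 genes stood above. For class C J-domain genes the count was 2 of 11 (18.2%) and for chaperonin genes 2 of 9 (22.2%). Both shares lie near the 23.4% of all tested genes. With 10 reads required in all 3 libraries, which raises the median gene, 16 of 41 tested members stood above. The share of all genes called at that setting was not counted. The calls of HSPBP1, HSPA4, hsp90aa1.1, DNAJA2, dnaja, DNAJB11 and CCT5 were among those lost.

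**Figure D2:**
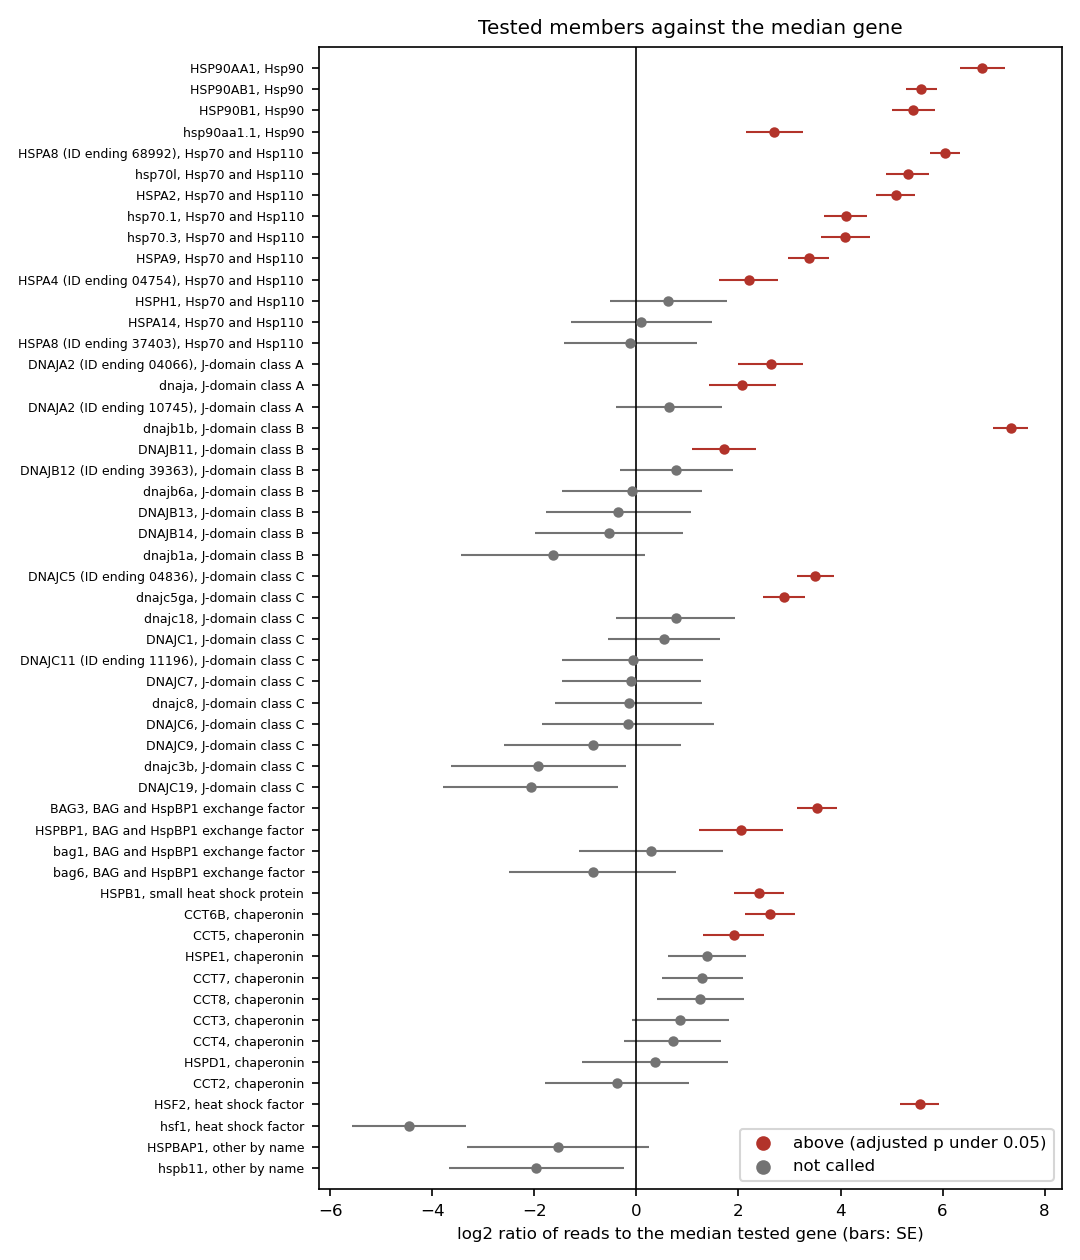
Log2 ratio of reads to the median tested gene for the 53 tested members, ordered by role, with bars of 1 SE from the edgeR fit over 3 muLEC libraries. Red points are the 23 members called above, from dnajb1b at 7.33 down to DNAJB11 at 1.72, and grey points were not called, with hsf1 lowest at -4.45. For symbols shared by several IDs the last digits of the ID are shown.

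Among Hsp90 genes, the reads of HSP90AA1 and of HSP90AB1 behaved differently between libraries. HSP90AA1 (ENSDARG00000024746), by its symbol a stress-inducible cytosolic Hsp90, stood at 1792, 1923 and 289.8 CPM in replicates 1, 2 and 3. Replicates 1 and 2 were close, and replicate 3 was the low one. Its mean was 1335 CPM ± 907 (SD, n = 3), which put it above the median gene (edgeR log2 ratio 6.78, SE 0.44, adjusted p = 1.52e-12). A second gene of that name, hsp90aa1.1 (ENSDARG00000010478), which in zebrafish serves the folding of muscle myosin, had the same order at a lower count, with 109.9, 113 and 15.0 CPM (edgeR log2 ratio 2.70, SE 0.56, adjusted p = 0.000141). That call was lost when 10 reads were required in all 3 libraries, at a log2 ratio of 1.42.

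HSP90AB1 (ENSDARG00000029150), the constitutive cytosolic Hsp90, stood at 462, 720.1 and 577 CPM. No library stood apart, and its highest value was 1.56 times its lowest (mean 586 CPM ± 129, edgeR log2 ratio 5.58, SE 0.30, adjusted p = 2.53e-12). The ratio of its reads to those of both hsp90aa1 copies together was 0.243, 0.354 and 1.89. A ratio of this kind depends on transcript length, but its change between libraries does not, and that change spanned 7.76-fold on the log2(CPM + 1) scale. The order of the 2 genes in reads thus differed in replicate 3, and the mean log2 difference of -0.87 ± 1.57 (SD, n = 3) had an exact two-sided sign-flip p of 0.5 (0.75 adjusted over 6 such pairs), where 3 libraries allow no p under 0.25. Without replicate 3 the mean log2 difference was -1.77, and -0.29 and -0.56 without replicates 1 and 2.

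HSP90B1, the Hsp90 of the endoplasmic reticulum, had 764, 672 and 137 CPM (edgeR log2 ratio 5.42, SE 0.42, adjusted p = 9.82e-11), with replicate 3 again the low library. Set against HSP90AB1, its reads gave ratios of 1.65, 0.933 and 0.238, a mean log2 difference of -0.48 ± 1.43 (SD, n = 3, exact sign-flip p = 0.75). Without replicate 3 the sign of that difference turned, to 0.31.

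HSPA8 and 3 hsp70 genes differed between libraries as HSP90AB1 and HSP90AA1 did, while other Hsp70 genes, given below, did not all follow. HSPA8 (ENSDARG00000068992), the constitutive Hsc70, stood at 724, 936 and 773 CPM and was among the evenest members, its highest library 1.29 times its lowest (mean 811 CPM ± 111, edgeR log2 ratio 6.05, SE 0.29, adjusted p = 4.3e-13). A second ID of that symbol (ENSDARG00000037403) had 205, 238 and 838 reads, without a call. The inducible gene hsp70l (ENSDARG00000055723) had 606, 723 and 127 CPM, the gene hsp70.1 had 286, 281 and 61.1 CPM, and the gene hsp70.3 had 257, 325 and 38.7 CPM. In all 3 of these hsp70 genes replicates 1 and 2 lay close together and replicate 3 was the lowest, below the mean of replicates 1 and 2 by a factor of 5.22 for hsp70l, 4.64 for hsp70.1 and 7.52 for hsp70.3. All 3 stood above the median gene, with edgeR log2 ratios of 5.32, 4.1 and 4.1 (SE 0.42, 0.43 and 0.48, adjusted p = 1.57e-10, 2.21e-08 and 7.59e-08). HSPA2 (ENSDARG00000092362), an Hsp70 gene by its symbol, followed them with 604, 482 and 157 CPM. The names used here pair no ID with hsp70.2 or hsp90aa1.2, so HSPA2 may be hsp70.2 and HSP90AA1 may be hsp90aa1.2.

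Summed over the 3 hsp70 genes, the level was 1150, 1329 and 227 CPM. The inducible gene hspa1b, given below, was left out of this sum. The reads of both HSPA8 IDs over the sum of the 3 genes gave ratios of 0.634, 0.710 and 3.49. These 3 hsp70 genes thus held more reads in replicates 1 and 2, and HSPA8 held more in replicate 3. The mean log2 difference was 0.22 ± 1.37 (SD, n = 3, exact sign-flip p = 1.0). It turned to -0.57 without replicate 3 and, over all 3 libraries, to -0.39 when HSPA2 was counted with the hsp70 genes, so its sign depends on what HSPA2 is. In the RefSeq gene table of the GRCz12tu assembly, hsp70.1, hsp70.2 and hsp70.3 follow each other with no other protein-coding gene between them, and hsp90aa1.1 lies next to hsp90aa1.2. Copies this alike in name may share reads, and no source used here says how the counting split such reads, so the level of a single copy is less certain than the sum.

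The remaining Hsp70 and Hsp110 genes were lower or uneven. HSPA9, the mitochondrial Hsp70, named after its values were seen, had 93.6, 193 and 91.5 CPM (edgeR log2 ratio 3.37, SE 0.40, adjusted p = 2.5e-07), with replicate 2 the highest. HSPA4 (ENSDARG00000004754), an Hsp110 exchange factor for Hsp70, had 62.0, 84.7 and 20.7 CPM and stood above the median gene (edgeR log2 ratio 2.20, SE 0.58, adjusted p = 0.00194). This call did not hold without replicate 2, where the ratio was 1.71. A second HSPA4 ID (ENSDARG00000018989) had 1431, 8 and 0 reads and was not tested. HSPH1, the heat-inducible Hsp110, had 1509, 440 and 58 reads and no call (log2 ratio 0.63, SE 1.15). The inducible gene hspa1b had 0, 2 and 305 reads, and HSPA12B, an endothelial member of a distant Hsp70 branch in mammals, had 2, 312 and 0, both chosen after their values were seen.

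**Figure D3:**
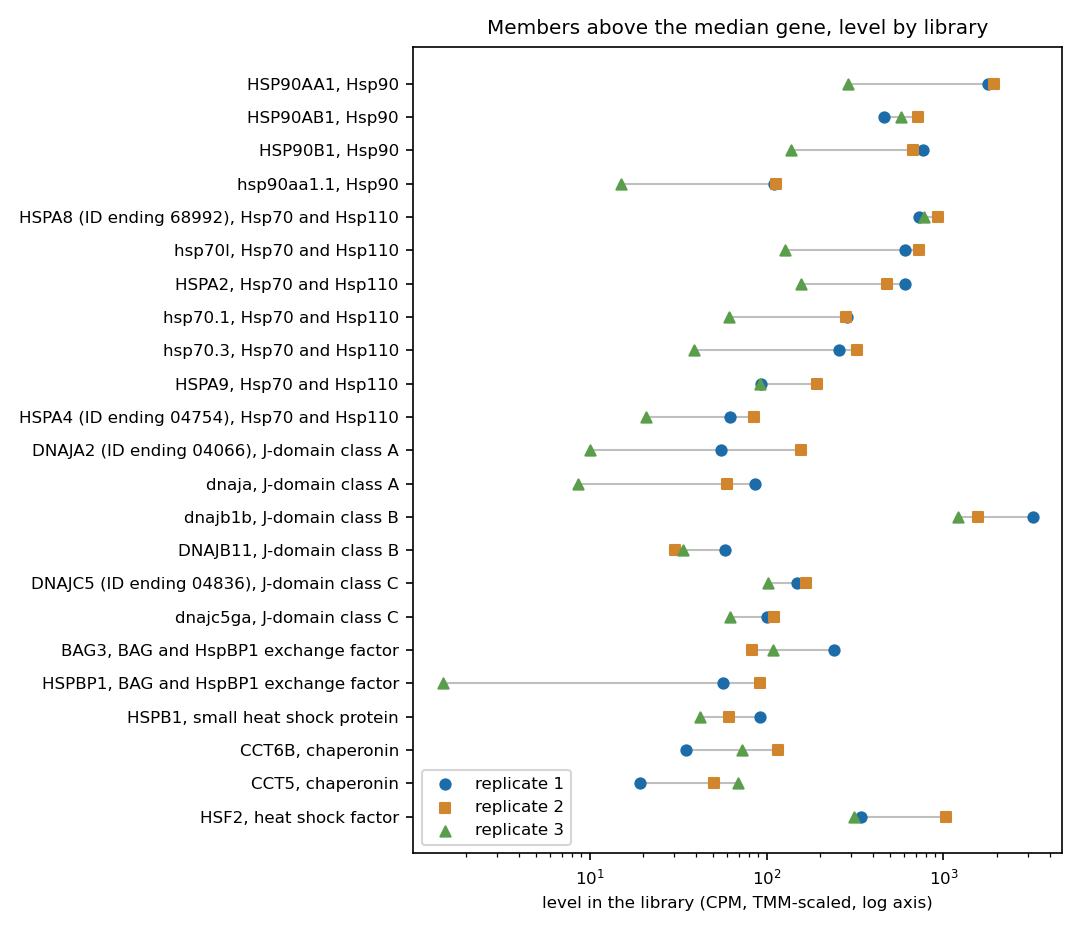
Level of the 23 members above the median gene in each muLEC library, in CPM on a log axis, by role, with a grey line from the lowest to the highest library. HSPA8, HSP90AB1, DNAJC5 and dnajc5ga have short lines, while HSP90AA1, the hsp70 genes, DNAJA2, dnaja and HSPBP1 have replicate 3 far to the left.

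Among J-domain proteins one gene held most of the reads. dnajb1b (ENSDARG00000041394), a class B partner of Hsp70 that is heat-inducible in vertebrates, stood at 3186, 1575 and 1214 CPM and ranked 30, 57 and 53 among all gene IDs by reads in replicates 1, 2 and 3. Replicate 1 was the highest, and the 3 values lay within 2.62-fold. Its mean was 1992 CPM ± 1050 (SD, n = 3), the highest ratio of any member (edgeR log2 ratio 7.33, SE 0.35, adjusted p = 2.48e-14), and it alone took 0.334%, 0.125% and 0.146% of reads. Its copy dnajb1a had 0, 157 and 254 reads and no call (log2 ratio -1.64, SE 1.81). Without dnajb1b, members took 0.783%, 0.711% and 0.429% of reads, so replicate 3 was still the lowest.

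Class A J-domain genes deliver unfolded clients to Hsp70. The gene dnaja1, a widely used class A partner in other vertebrates, had 4, 4 and 50 reads and was not tested. The gene dnaja (ENSDARG00000051762), a class A gene by its symbol, had 86.4, 59.8 and 8.56 CPM (edgeR log2 ratio 2.08, SE 0.66, adjusted p = 0.00801), and DNAJA2 (ENSDARG00000104066) had 55.2, 157 and 10 CPM (edgeR log2 ratio 2.63, SE 0.65, adjusted p = 0.000646). Both were lowest in replicate 3. The dnaja call was lost without replicate 1, at 1.53 and a mean of 34.2 CPM, and without replicate 2, at 1.91. That of DNAJA2 was lost without replicate 2, at 1.37 and a mean of 32.6 CPM. The second DNAJA2 ID had 20.6, 24 and 12.5 CPM and did not pass. Reads of dnajb1a and dnajb1b together exceeded those of dnaja1, with a mean difference in log2(CPM + 1) of 10.34 ± 1.2 (SD, n = 3, higher in 3 of 3 libraries, exact sign-flip p = 0.25, the smallest that 3 libraries allow, 0.5 adjusted over 6 pairs). This value rests on the pseudocount, on lengths not divided out and on the few reads of dnaja1. The pair was fixed by name and leaves out dnaja and DNAJA2, so it does not compare class B with class A.

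Among class B and C members linked to the secretory pathway, DNAJB11 stood lower than DNAJC5 and its relative dnajc5ga. DNAJB11, a J-domain protein inside the endoplasmic reticulum, had 58.1, 30.4 and 33.6 CPM (edgeR log2 ratio 1.72, SE 0.62, adjusted p = 0.023). This call did not hold without replicate 1, at a ratio of 1.39, without replicate 3, at 1.85, or with DESeq2, at an adjusted p of 0.0726. DNAJC5 (ENSDARG00000004836), the cysteine string protein of secretory vesicles, had an even 148, 168 and 102 CPM (edgeR log2 ratio 3.51, SE 0.36, adjusted p = 5.78e-08). Its relative dnajc5ga had 100.1, 110.4 and 62.2 CPM (edgeR log2 ratio 2.89, SE 0.42, adjusted p = 3.98e-06). These 2 were the only class C genes above the median gene, and 10 of the 32 class C genes had no more than 3 reads in any library.

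Exchange factors and small heat shock proteins were represented by few genes. BAG3, an inducible exchange factor that links Hsp70 and small heat shock proteins to autophagy, had 241, 82.6 and 109 CPM, highest in replicate 1 (edgeR log2 ratio 3.54, SE 0.39, adjusted p = 1.03e-07), and its mean of 144 CPM was 96.0 CPM without replicate 1. HSPBP1, an Hsp70 exchange factor, had 2147, 2576 and 61 reads. Its call (edgeR log2 ratio 2.06, SE 0.82, adjusted p = 0.0316) was lost without replicate 1, at 1.99, without replicate 2, at 1.21 and a mean of 29.2 CPM against 50.1 CPM, with DESeq2 (adjusted p = 0.0571) and with limma-trend (adjusted p = 0.483). The constitutive factor bag1 had 1, 567 and 1005 reads and bag6 367, 2 and 461, and neither passed. BAG2, BAG4, BAG5 and a second BAG6 ID had no more than 2 reads in any library.

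Of 9 small heat shock protein genes, HSPB1, the Hsp27 that holds damaged proteins and protects actin filaments, was the only one tested. It had 91.9, 61.4 and 42.2 CPM and stood above the median gene (edgeR log2 ratio 2.40, SE 0.48, adjusted p = 0.000164). Of the other 8, hspb6 had 1, 0 and 85 reads and 7 had no more than 3 reads in any library, among them HSPB8, the partner of Bag3 in mammals, with 1, 0 and 1.

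The CCT ring is built of 8 different subunits in equal number, so its subunit genes were compared with each other. CCT6B, here the only ID of the sixth subunit in the table, had 35.0, 117 and 73.0 CPM (edgeR log2 ratio 2.62, SE 0.49, adjusted p = 6.23e-05), and CCT5 had 19.2, 50.4 and 68.6 CPM (edgeR log2 ratio 1.90, SE 0.60, adjusted p = 0.00833). The CCT5 call was lost without replicate 2, at 1.79, and without replicate 3, at 1.54. CCT3, CCT4, CCT7, CCT8 and CCT2 did not pass, at means between 9.72 and 29.7 CPM. TCP1, the first subunit, had 7, 1 and 356 reads and was not tested. The median subunit gene stood at 19.0, 27.5 and 24.5 CPM in replicates 1, 2 and 3, close between libraries, and TCP1 was the lowest of these 8 IDs each time. A second CCT2 ID (ENSDARG00000087206), with 2, 0 and 15 reads, was lower still and was left out of this comparison, which took 1 ID for each subunit. Without TCP1 the highest subunit gene exceeded the lowest by 9.82-, 83.9- and 7.02-fold in replicates 1, 2 and 3. The rank order also moved: CCT3 was the highest subunit gene in replicate 1 and CCT6B in replicates 2 and 3.

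**Figure D4:**
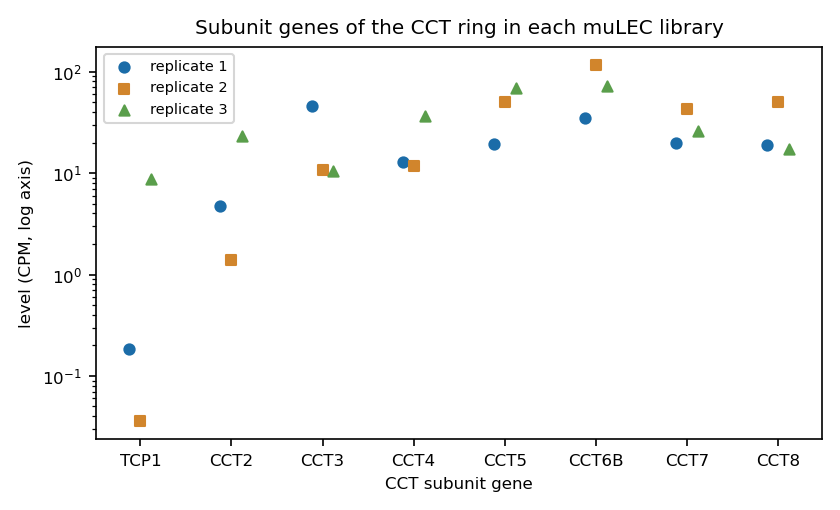
Level of the 8 subunit genes of the CCT ring, 1 ID a subunit, in each muLEC library, in CPM on a log axis. Most points lie between 10 and 100 CPM, but TCP1 reached 8.66 CPM in replicate 3 and stood at 0.185 and 0.0357 CPM in replicates 1 and 2, and CCT2 ranged from 1.39 to 23.0 CPM.

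The mitochondrial chaperonin pair was also uneven. HSPD1, the Hsp60 ring, had 3, 943 and 505 reads, while HSPE1, its Hsp10 lid, had 1543, 1044 and 716, and neither passed (log2 ratios 0.36 ± 1.43 and 1.38 ± 0.76, SE). Both genes lie next to each other in the RefSeq table. HSPD1 was at the floor of 3 reads in replicate 1, where HSPE1 had its highest count, so the counts of these neighbours did not move together there. Their mean log2 difference was -1.96 ± 2.87 (SD, n = 3, exact sign-flip p = 0.25), and -0.31 without replicate 1.

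Of the heat shock factors, the gene with the HSF2 symbol held nearly all reads. HSF2 (ENSDARG00000053097) had 12929, 29058 and 12849 reads, or 342, 1038 and 312 CPM, with replicate 2 the high one (mean 564 CPM ± 411, and 327 CPM without replicate 2). The oligodendrocyte markers mbpa, given above, and mbpb, at 2.41, 174 and 11.8 CPM, were also highest in replicate 2, and their part in the HSF2 values was not tested. It stood above the median gene (edgeR log2 ratio 5.55, SE 0.39, adjusted p = 3.16e-11). hsf1 (ENSDARG00000008818), the factor known to drive the heat shock response, had 18, 29 and 6 reads, or 0.477, 1.04 and 0.146 CPM. Its edgeR log2 ratio of -4.45 (SE 1.12) did not pass, with an adjusted p of 0.0773, and limma-trend called it below at -3.18. The log2 difference of hsf1 less HSF2 was -7.86, -9.0 and -8.10, a mean of -8.32 ± 0.60 (SD, n = 3, lower in 3 of 3 libraries, exact sign-flip p = 0.25, the smallest possible, 0.5 adjusted over 6 pairs). It was -9.79 with a pseudocount of 0.1 and -6.46 with 5. The order of the 2 factors in reads was the same in each library, with counts not divided by length. HSF4 and hsf5 had 0 reads in every library.

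Low values in replicate 3 recurred among the members described above, and they were counted after those values were seen. Of 21 tested members with a mean of at least 50 CPM, 17 were lowest in replicate 3 (81.0%), against 45.0% of all 1383 tested genes of that level. Replicate 3 was at least 2-fold below both other libraries for 11 of the 21 members (52.4%), against 10.1% of all such genes. Those 11 were HSP90AA1, hsp90aa1.1, HSP90B1, hsp70l, hsp70.1, hsp70.3, HSPA2, HSPA4, DNAJA2, dnaja and HSPBP1. The same count was 1 of 21 for replicate 1 (CCT6B) and 0 of 21 for replicate 2, against 6.87% and 7.74% of all genes. With plain library size the 11 members were again 11, against 6.58% of all genes, and with DESeq2 size factors 11, against 13.6%. The members that kept within 2-fold between replicate 3 and the lower of the others include HSPA8, HSP90AB1, dnajb1b, BAG3, DNAJC5, HSPB1 and HSF2. The median log2 difference of replicate 3 from the mean of replicates 1 and 2 was -1.76 for the 21 members and -0.23 for all such genes. These counts describe 3 libraries and carry no test, since a single library holds the low values. The bar of 50 CPM was set on the mean of all 3 libraries, so replicates 1 and 2 can carry a gene over it. HSPBP1 passed at a mean of 50.1 CPM with 1.48 CPM in replicate 3, and dnaja at 51.6 CPM with 8.56 CPM. All 1383 genes passed the same bar. The hsp70 and hsp90aa1 copies may share reads, so the 11 members are not separate observations.

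**Figure D5:**
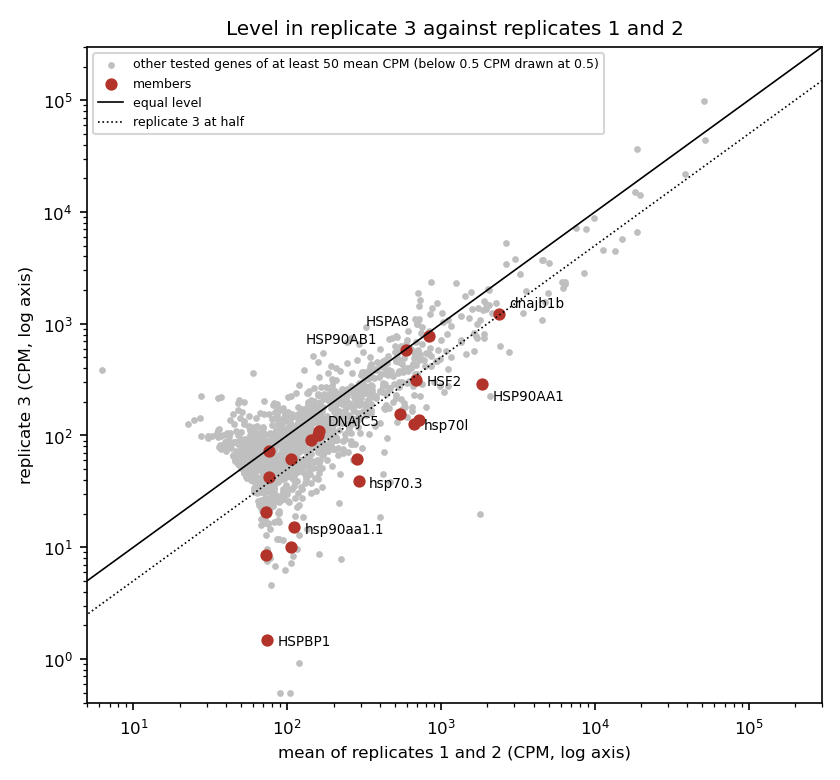
Level in replicate 3 (vertical, CPM, log axis) against the mean of replicates 1 and 2 (horizontal, CPM, log axis) for the 1383 tested genes of at least 50 mean CPM, with the 21 members in red. HSPA8 and HSP90AB1 lie close to the line of equal level, whereas HSP90AA1, hsp70l, hsp70.3, hsp90aa1.1 and HSPBP1 lie far below the dotted line at which replicate 3 has 1/2 of the level.

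Co-chaperones outside the symbol rule were read from lists of partner genes, with 52 IDs found, 28 of them tested and 13 above the median gene, where 23.4% of all tested genes were. Of these 28, 0 stood below by edgeR or DESeq2 and 1 by limma-trend. Among Hsp90 co-chaperones 5 of 10 tested genes stood above. AHSA1 (ENSDARG00000100317), which speeds the ATPase of Hsp90, had 1732, 2449 and 227 CPM (edgeR log2 ratio 6.93, SE 0.49, adjusted p = 2.16e-12). STIP1, the Hop protein that joins Hsp70 to Hsp90, had 99.9, 222 and 8.68 CPM (edgeR log2 ratio 3.2, SE 0.63, adjusted p = 4.49e-05). The STIP1 call did not hold without replicate 2, at a ratio of 2.11 and a mean of 54.3 CPM. Both followed the order of HSP90AA1, with replicate 3 the lowest. PTGES3 (ENSDARG00000037284), the p23 protein, was even at 83.9, 70.0 and 57.9 CPM, FKBP5 had 143, 85.1 and 53.4 CPM and SUGT1 100.3, 76.7 and 59.1 CPM. A second PTGES3 ID (ENSDARG00000089626) had 13.9, 28.5 and 12.9 CPM and did not pass. A second AHSA1 ID (ENSDARG00000028664) had 5, 0 and 50 reads and was not tested. The kinase adaptor CDC37 had 1, 0 and 153 reads.

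Among Hsp70 partners 3 of 7 tested genes stood above the median gene, where 23.4% of all tested genes did. The 3 were ST13, the Hip protein, HYOU1, the large Hsp70 relative of the endoplasmic reticulum, and GRPEL2, an exchange factor of mitochondria. HYOU1 had 104, 149.8 and 18.6 CPM, again lowest in replicate 3. ST13 had 29.7, 124 and 32.9 CPM and lost its call without replicate 2, at 1.31 and a mean of 31.3 CPM against 62.2 CPM. GRPEL2 lost its call without replicate 2, at 1.58. STUB1, the ubiquitin ligase of Hsp70 clients, had 22, 0 and 0 reads. Of prefoldin subunits and CCT cofactors, 4 of 7 tested genes stood above, against the same 23.4%. VBP1 had 41.7, 53.8 and 50.2 CPM, PDCL3 60.3, 34.7 and 58.3 CPM and TXNDC9 119.9, 125 and 34.5 CPM. The fourth, PFDN4, lost its call with DESeq2, with limma-trend and without replicates 1 and 2, at log2 ratios of 0.86 and 1.89, and its mean of 39.6 CPM was 22.1 CPM without replicate 1. HSPA5, the Hsp70 of the endoplasmic reticulum left out of the members, was the only gene of the last list to pass, at 997, 366 and 357 CPM, and its mean of 573 CPM was 361 CPM without replicate 1. Replicate 1 was the highest library for HSPA5 and for HSP90B1 of the same compartment, but HSPA5 was close between replicates 2 and 3, where HSP90B1 was low in replicate 3 alone. Of 10 partner genes with at least 50 mean CPM, 8 were lowest in replicate 3, against 45.0% of all 1383 tested genes of that level. Replicate 3 was at least 2-fold below both other libraries for 4, against 10.1%. As for the members, that bar can be met through replicates 1 and 2.

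Other features also differed between the libraries, though not all of them set replicate 3 apart. Summed over 12 macrophage and microglia markers, levels were 1085, 1061 and 3362 CPM in replicates 1, 2 and 3, with P2RY12 and LCP1 at 0 reads in every library. Most of this sum came from apoeb and cd74a, and 3 of 6 tested markers stood above the median gene. Reads of cd74b, at 58, 306 and 15963, and of c1qa, at 0, 0 and 480, were also highest in replicate 3. SPI1, with 7, 1500 and 14 reads, and c1qc, with 0, 620 and 511, were highest in replicate 2 instead. Summed pericyte and smooth muscle markers came to 373, 927 and 150.2 CPM, nearly all of it from RGS5 with 148, 651 and 18.6 CPM and a TAGLN ID (ENSDARG00000033466) with 225, 276 and 131 CPM. NOTCH3, PDGFRB and ABCC9 had no more than 2 reads in any library and acta2 no more than 5. Summed lymphatic markers were 5867, 7483 and 5804 CPM, most of it from MRC1 with 3790, 5318 and 3759 CPM. Some single markers were even, such as NR2F2 at 69.0, 62.5 and 62.7 CPM. Others were not: PROX1 had 614, 1213 and 1 reads, lyve1a 0, 976 and 754, and VEGFC 0, 0 and 255. Summed fibroblast and meningeal markers, at 60.2, 89.6 and 153 CPM, were highest in replicate 3. Summed pan-endothelial markers, at 964, 1299 and 729 CPM, were lowest there. Replicate 3 also had the smallest malat1 share and the most genes with 10 reads. The part of these features in the low chaperone values was not tested, and with 1 library on that side they cannot be told apart.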

How the data were processed

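Bulk RNA-seq of 3 muLEC libraries was analysed, matched to the columns of the table by replicate number. The authors deposited whole-number read counts per Ensembl gene ID. The submitters' processing notes name GRCz10, bcl2fastq and R 3.2.2, and the aligner, the counter and its strand setting were stated in no source used here. A deposited YuGene score was not used. Every row has a gene ID. Symbols came from a table pairing IDs with names. Members, gene lists and naming rules were chosen with earlier results of these data known.

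The test covered genes for which 2 or more libraries reached 10 reads, using edgeR 4.0.16 (quasi-likelihood, the intercept against 0, the offset being the log median count of the tested genes), with Benjamini-Hochberg adjustment over all of them. The steps of glmQLFTest were written out, because it does not accept a design of 1 column, and were tested on simulated data. CPM used TMM factors of 1.05, 0.796 and 1.20. Pair differences used log2(CPM + 1). Named were the 4 highest members of each role, a fixed set including the hsp70, hsp90 and CCT genes, and the 5 members of at least 50 CPM with the largest ratio between libraries. Alternatives used DESeq2 1.42.0 and limma 3.58.1. A planned division by coding length was not run, since no transcript or protein lengths were used here. Some oligodendrocyte markers are not reported here. Partner genes and markers were matched by symbol, ignoring case, or by the stem without a final a or b.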

Additional observations from a re-analysis of the deposited data

How the results depend on the processing

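No paired analysis was possible because the series has a single group. The count of 23 members above the median gene was 21 with DESeq2, 22 with limma-trend, 16 with 10 reads in all 3 libraries, 25 with TMM library sizes, 18 to 20 and 21 when a replicate was left out with the tested genes kept, and 65 of 91 with no filter, which lowers the median gene. Below the median gene limma-trend placed 1 member and 1 partner gene, against 0. Partner genes above numbered 8 with 10 reads in all 3 libraries and 10 to 13 without a replicate. The share of all genes called above, 23.4%, was counted for the main setting alone. Member and partner counts under the alternatives, 65 of 91 included, therefore stand without a background share. The members' mean share was 1.29% of reads outside malat1 and mitochondrial genes, with 1.71%, 1.38% and 0.783% in replicates 1, 2 and 3. Of all reads, the mean share was 0.705% to 0.977% without a replicate. Of 22 named members called above, 15 kept the call under every alternative run and 7 lost it under at least 1. Alternatives added after seeing the data were the share without dnajb1b, HSPA2 with the hsp70 genes, HSPA8 as a single ID, the strict filter on partner genes, and the scalings behind the low counts of replicate 3.

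Signs turned mainly for members near the median gene. With no filter the log2 ratios were 5.66 for bag6, 6.89 for the second HSPA8 ID, 7.68 for dnajb6a, 5.84 for dnajb1a, 5.68 for CCT2, 3.55 for hsf1, 4.14 for HSPBAP1 and 4.89 for hspb11. With limma-trend they were -0.72 for bag1, -0.20 for HSPH1, -0.36 for DNAJB12, -0.018 for dnajc18 and -0.78 for HSPD1. With 10 reads in all 3 libraries, which raises the median gene, they were -0.60 for HSPH1, -0.61 for the second DNAJA2 ID, -0.34 for DNAJB12, -0.63 for dnajc18, -0.70 for DNAJC1, -0.055 for CCT8, -0.32 for CCT3 and -0.42 for CCT4. With TMM library sizes they were 0.53 for the second HSPA8 ID, 0.52 for dnajb6a and 0.29 for CCT2. Between replicates left out, log2 ratios ran from -0.21 to 0.87 for bag1 (-0.06 without replicate 2), -0.46 to 1.18 for HSPH1, -0.79 to 0.22 for the second HSPA8 ID (0.02 without replicate 2), -1.25 to 1.35 for DNAJB12, -0.68 to 0.21 for dnajb6a (0.04 without replicate 3), -0.91 to 1.27 for dnajc18, -0.2 to 1.2 for CCT3, -1.04 to 0.94 for HSPD1 and -2.02 to 0.13 for CCT2. Without replicate 3 the pair differences were -0.57 for HSPA8 less the hsp70 genes (over all 3 libraries -0.39 with HSPA2 among them) and 0.31 for HSP90B1 less HSP90AB1. Likewise, pair differences ran from -1.77 to -0.29 for HSP90AB1 less hsp90aa1, -0.57 to 0.65 for HSPA8, 9.77 to 10.96 for dnajb1 less dnaja1, -8.55 to -7.98 for hsf1 less HSF2, -2.87 to -0.31 for HSPD1 less HSPE1 and -1.08 to 0.31 for HSP90B1. With 3 libraries, members of low count had wide errors, and one left uncalled is not shown to lie at the median gene.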
